A study of Mus musculus with 12 samples.

Results

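The genes described here are the 3 pore-forming subunits of the Cav2 family of voltage-gated calcium channels, Cacna1a, Cacna1b and Cacna1e, with the genes of their cytoplasmic beta subunits, Cacnb1 to Cacnb4, and of their extracellular alpha2delta subunits, Cacna2d1, Cacna2d2 and Cacna2d3. They were chosen by symbol rather than by their values, although earlier results of these data were known. They are 10 of the 39174 gene identifiers in 12 mRNA-seq libraries of primary mouse motoneuron cultures. All mice were of the FVB strain and carried the human SMN2 transgene. Cultures of Smn-/-;SMN2 mice, called Smn-null here, lacked functional mouse Smn1, the gene for the survival motor neuron protein, and cultures of Smn+/+;SMN2 mice, called control, kept it. Each genotype was studied with 0.5 µM R-Roscovitine and untreated, which gave 4 groups of 3 libraries: Smn-null with the compound, control with the compound, Smn-null untreated and control untreated. R-Roscovitine inhibits cyclin-dependent kinases and acts as an agonist that slows the closing of Cav2 channels, and the comparisons ask whether the channel genes differed by genotype or with the compound. The labels give no age, days in culture, time of exposure or number of animals behind a library. They do not state whether replicates were grown as separate cultures, and p-values then measure only the spread between these samples, which may be technical.

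Cav2 channels open when an action potential reaches the nerve terminal, and the calcium that enters triggers the release of transmitter. Cacna1a encodes the pore of P/Q-type channels, Cacna1b that of N-type channels and Cacna1e that of R-type channels. A beta subunit binds the loop between the first and second repeat of the pore from the cytoplasm and helps to bring the channel to the membrane. An alpha2delta subunit sits on the outer face, raises the number of channels at the surface, and is, in its first and second form, the binding site of gabapentin. At mature neuromuscular junctions of mice, P/Q-type channels carry most of the release, with a larger part for N-type channels early in life.

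The coding sequences in which the classes meet show how alike the members are, and thus how far reads could be told apart. The stretch of the pore that binds the beta subunit, known as the alpha interaction domain, is shown for the coding strand, with capitals at each base that differs from Cacna1b. The sequences are from GENCODE M21 transcripts on GRCm38, and each stretch of 57 bases runs across exons 8 and 9 of its transcript.
Cacna1a, chr8:84536125-84536406 on the plus strand: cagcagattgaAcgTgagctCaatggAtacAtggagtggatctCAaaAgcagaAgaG
Cacna1b, chr2:24719097-24719992 on the minus strand: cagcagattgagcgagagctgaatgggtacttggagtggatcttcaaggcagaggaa
Cacna1e, chr1:154488834-154493353 on the minus strand: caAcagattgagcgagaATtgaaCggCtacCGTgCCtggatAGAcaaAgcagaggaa
Over these bases Cacna1a differed from Cacna1b at 10 positions, an identity of 82.5%, and Cacna1e at 14, an identity of 75.4%.

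The second set is the start of the von Willebrand factor A domain of the alpha2delta subunits, which holds the metal-binding site that these subunits need to raise channel numbers. Capitals mark each base that differs from Cacna2d1 over 54 coding bases.
Cacna2d1, chr5:16266712-16267403 on the plus strand, exons 9 and 10: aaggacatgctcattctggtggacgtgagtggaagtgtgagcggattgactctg
Cacna2d2, chr9:107513079-107513260 on the plus strand, exons 9 and 10: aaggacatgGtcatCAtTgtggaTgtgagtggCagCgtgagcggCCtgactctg
Cacna2d3, chr14:29346953-29347006 on the minus strand, exon 8: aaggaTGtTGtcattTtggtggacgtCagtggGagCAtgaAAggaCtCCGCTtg
Cacna2d2 differed at 9 positions, an identity of 83.3%, and Cacna2d3 at 17, an identity of 68.5%. Over whole annotated transcripts no word of 50 bases was shared between any 2 members, and at most 0.636% of a member's words, in Cacna1e, occurred in any other gene. Of the Cacnb4 exon bases, 16.0% overlapped A430018G15Rik on the opposite strand, which averaged 2.22 FPKM. The labels do not state whether quantification used strand, so reads in that overlap cannot be assigned with certainty.

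Levels are given as FPKM, fragments scaled by transcript length and library size, which allow comparison between genes. Depth, estimated from the step between low values within a range set in advance, was 19.5 to 25.2 M reads in Smn-null and 23.3 to 28.7 M reads in control libraries. A depth outside that range could not have been found. Smn1, the check of the genotype labels, had 5.04 to 7.35 FPKM in Smn-null and 38.2 to 45.1 FPKM in control libraries with the compound, and 6.11 to 8.58 FPKM in Smn-null and 30.9 to 51.2 FPKM in control libraries without it (adjusted p = 9.13e-05 and 0.000266, limma). Motoneuron markers were mostly low. Mnx1 was listed at 0 throughout, and Chat did not exceed 0.0605 FPKM in any library. Of 9 motoneuron markers listed, 8 were used here, and the 6 genes Chat, Mnx1, Isl1, Isl2, Lhx3 and Slc5a7 stayed under 1 FPKM in all 12 libraries. The other 2 were Prph, which reached 1.71 FPKM, and Chodl, which had 3.53 to 18.1 FPKM. Each of the 15 pan-neuronal markers reached 1 FPKM in at least 1 library. Each of the 8 interneuron markers listed also reached 1 FPKM in at least 1 library. The cultures were labelled motoneurons, and their content of motoneurons was not measured here.

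All 10 members passed the filter for testing, at least 1 FPKM in at least 3 libraries, and none was below 1 FPKM in any library. By their means over the 12 libraries they formed a higher set of 6 and a lower set of 4. Cacna2d1 had the highest mean, 19.1 ± 8.79 FPKM (SD, n = 12), followed by Cacna1a at 16.6 ± 2.08, Cacnb3 at 15.0 ± 2.38, Cacnb1 at 14.7 ± 3.36, Cacna2d2 at 14.4 ± 4.65 and Cacna1b at 12.4 ± 3.38 FPKM. The lower set was Cacnb2 at 4.62 ± 0.649, Cacna2d3 at 4.48 ± 1.57, Cacnb4 at 4.36 ± 1.21 and Cacna1e at 3.28 ± 0.815 FPKM. Cacna1b and Cacnb2, the neighbours at the step between the sets, did not overlap: Cacna1b was at least 7.22 FPKM and Cacnb2 at most 5.87 FPKM, and Cacna1b exceeded Cacnb2 in 12 of 12 libraries. The ranges of the sets did overlap, since Cacna2d3 reached 8.20 FPKM and Cacnb4 7.59 FPKM, while Cacna2d1 was as low as 6.23 FPKM. Within each set every neighbouring pair overlapped in range, so the order there does not hold beyond the spread between libraries. Within single libraries, Cacnb3 exceeded Cacnb1 in 5 of 12 and Cacna2d3 exceeded Cacnb4 in 6 of 12. Cacnb4 exceeded Cacna1e in 11 of 12 and Cacnb2 exceeded Cacna2d3 in 9 of 12. The other neighbouring pairs of a set kept their order in 7 or 8 of 12. The widest spread between libraries was that of Cacna2d1, 6.23 to 41.0 FPKM, and the narrowest relative to its mean was that of Cacna1a, 13.7 to 19.8 FPKM, with coefficients of variation of 46.1% and 12.5%. The Cufflinks interval around a single value, which covers counting and assignment error, extended a median of 4.80% to each side for Cacna2d1 and of 19.7% for Cacnb4, up to 34.6% in 1 library. The median of Cacna2d1 includes treated control library 2, where Cufflinks marked the estimate as failed. Its interval there, 0 to 1.17 FPKM, did not hold its value of 23.7 FPKM.

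**Figure D1:**
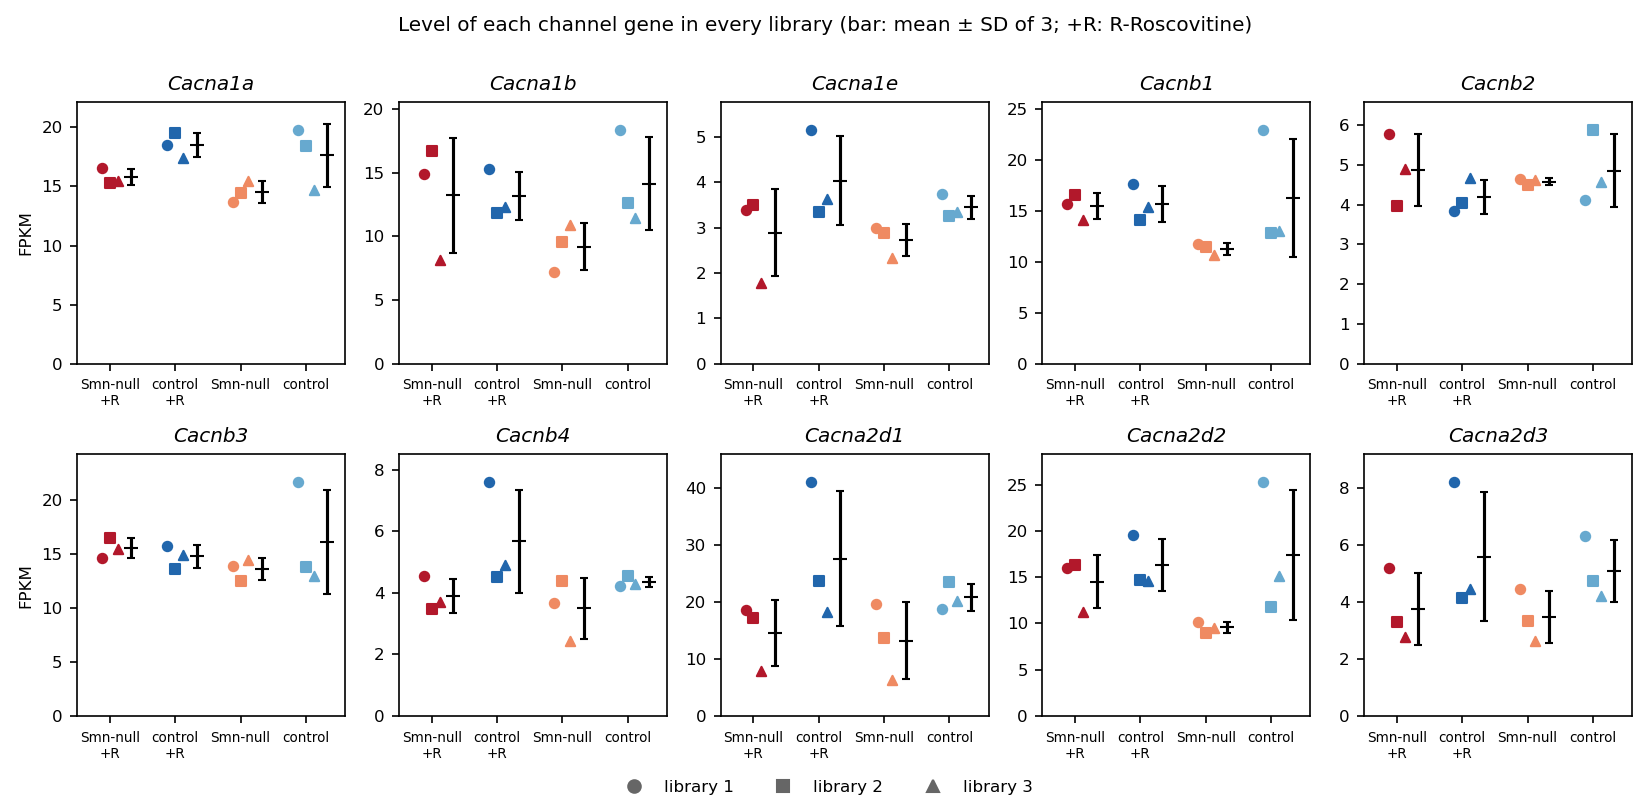
FPKM (vertical axes, from 0) of the 10 genes in each of the 12 libraries, by group on the horizontal axes; marker shapes give the library number, and the bar beside each group is its mean ± SD (n = 3). Cacna2d1 spreads most, from 6.23 to 41.0 FPKM, and in untreated cultures the Smn-null points of Cacna1b, Cacna1e, Cacnb1 and Cacna2d2 lie below all control points.

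Shares within each class show which genes made up most of it. Of the summed FPKM of the 3 pores, Cacna1a made up 51.9% ± 5.07, Cacna1b 37.9% ± 4.86 and Cacna1e 10.1% ± 1.75 (SD, n = 12). Of the beta subunits, Cacnb3 made up 38.8% ± 2.77, Cacnb1 37.7% ± 2.96, Cacnb2 12.2% ± 2.48 and Cacnb4 11.3% ± 2.62. Of the alpha2delta subunits, Cacna2d1 made up 48.7% ± 8.97, Cacna2d2 39.3% ± 8.52 and Cacna2d3 11.9% ± 1.51. The N-type share of the pores was 40.6% ± 7.72 in Smn-null and 36.8% ± 2.60 in control cultures with the compound, and 34.5% ± 3.92 in Smn-null and 39.8% ± 3.61 in control cultures without it (SD, n = 3 each). These shares overlapped between all groups.

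Among the pores, the P/Q-type gene Cacna1a (chromosome 8, 84388440 to 84640246, plus strand) had 16.5, 15.3 and 15.4 FPKM in Smn-null libraries 1 to 3 with R-Roscovitine, against 18.5, 19.5 and 17.4 FPKM in control libraries with it. Untreated, it had 13.7, 14.4 and 15.5 FPKM in Smn-null libraries, against 19.8, 18.4 and 14.7 FPKM in control libraries. The genotypes did not overlap with the compound and overlapped without it through the third control library. The log2 difference, Smn-null minus control, was -0.20 ± 0.13 (SE) with the compound and -0.21 ± 0.13 without it, and neither passed the test (adjusted p = 0.544 and 0.453).

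The N-type gene Cacna1b (chromosome 2, 24603887 to 24763152, minus strand) had 14.9, 16.7 and 8.11 FPKM in Smn-null libraries with R-Roscovitine, against 15.3, 11.8 and 12.3 FPKM in control libraries with it. Untreated, it had 7.22, 9.54 and 10.9 FPKM in Smn-null libraries, against 18.3, 12.7 and 11.4 FPKM in control libraries. Untreated Smn-null libraries thus lay below all 3 controls, while with the compound Smn-null libraries held both the highest and the lowest value. The genotype difference was -0.02 ± 0.24 with the compound, with a 95% interval of -0.54 to 0.49, and -0.52 ± 0.24 without it (adjusted p = 0.975 and 0.353). The difference with the compound, treated minus untreated, was 0.44 ± 0.24 in Smn-null and -0.06 ± 0.24 in control cultures, and neither passed (adjusted p = 0.999 and 0.9997).

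The R-type gene Cacna1e (chromosome 1, 154392519 to 154725920, minus strand) was the lowest of the 10. It had 3.39, 3.50 and 1.78 FPKM in Smn-null libraries with R-Roscovitine, against 5.15, 3.34 and 3.64 FPKM in control libraries with it, which overlapped. Untreated, it had 2.99, 2.89 and 2.33 FPKM in Smn-null libraries, against 3.74, 3.27 and 3.35 FPKM in control libraries, which did not overlap. The genotype differences were -0.38 ± 0.20 with the compound and -0.22 ± 0.20 without it (adjusted p = 0.443 and 0.618). Averaged over genotypes, the difference with R-Roscovitine was 0.11 ± 0.09 for Cacna1a, with a 95% interval of -0.09 to 0.30. It was 0.19 ± 0.17 for Cacna1b, with an interval of -0.17 to 0.56, and 0.11 ± 0.14 for Cacna1e, with an interval of -0.19 to 0.41.

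Among the beta subunits, Cacnb1 (chromosome 11, 98001508 to 98023034, minus strand), which also serves the channel of skeletal muscle, had 15.7, 16.6 and 14.2 FPKM in Smn-null libraries with R-Roscovitine, against 17.6, 14.1 and 15.4 FPKM in control libraries with it. Untreated, it had 11.8, 11.5 and 10.6 FPKM in Smn-null libraries, against 23.0, 12.9 and 13.0 FPKM in control libraries. Untreated Smn-null libraries were thus the 3 lowest of all 12, and untreated control library 1 was the highest. The genotype difference was -0.0011 ± 0.18 with the compound, with an interval of -0.39 to 0.39, and -0.40 ± 0.18 without it (adjusted p = 0.999 and 0.340). Without untreated control library 1, the untreated difference was -0.16. In Smn-null cultures the difference with the compound was 0.42 ± 0.18 (adjusted p = 0.999 in the fit without pairs). It was 0.37 to 0.51 in the 3 same-numbered pairs, which must all be positive because the treated and untreated groups did not overlap.

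Cacnb3 (chromosome 15, 98632220 to 98644530, plus strand), a beta subunit of neurons, had 14.6, 16.5 and 15.5 FPKM in Smn-null libraries with R-Roscovitine, against 15.7, 13.6 and 14.9 FPKM in control libraries with it. Untreated, it had 13.9, 12.5 and 14.5 FPKM in Smn-null libraries, against 21.6, 13.7 and 12.9 FPKM in control libraries. Treated Smn-null libraries lay just above the untreated Smn-null ones, and the genotypes overlapped in both treatments. The untreated genotype difference was -0.15 ± 0.16 and turned to 0.05 without untreated control library 1.

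Cacnb2 (chromosome 2, 14604306 to 14987908, plus strand), the main beta subunit of the heart, ranged from 3.96 to 5.77 FPKM in Smn-null and from 3.83 to 4.67 FPKM in control libraries with the compound, and from 4.48 to 4.64 FPKM in Smn-null and from 4.11 to 5.87 FPKM in control libraries without it. Cacnb4 (chromosome 2, 52428320 to 52676831, minus strand), whose loss causes the lethargic mouse, had 4.53, 3.47 and 3.70 FPKM in Smn-null libraries with the compound, against 7.59, 4.52 and 4.91 FPKM in control libraries with it. Untreated, it had 3.67, 4.39 and 2.44 FPKM in Smn-null libraries, against 4.22, 4.55 and 4.29 FPKM in control libraries. Its genotype differences were -0.41 ± 0.20 with the compound and -0.24 ± 0.20 without it (adjusted p = 0.403 and 0.585). Both treatments overlapped between genotypes, narrowly with the compound.

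Cacna2d1 (chromosome 5, 15934691 to 16374511, plus strand) gave the largest fitted genotype difference of the 10 and the largest error. It had 18.7, 17.2 and 7.85 FPKM in Smn-null libraries with R-Roscovitine, against 41.0, 23.7 and 18.2 FPKM in control libraries with it. Untreated, it had 19.7, 13.7 and 6.23 FPKM in Smn-null libraries, against 18.8, 23.5 and 20.2 FPKM in control libraries. Smn-null library 3 was the lowest of its group in both treatments, treated control library 1 was the highest of all 12, and the genotypes overlapped in both treatments. The 23.7 FPKM of treated control library 2 was marked as failed by Cufflinks, and it was kept in all levels, shares, sums and fits. The genotype difference was -0.87 ± 0.39 with the compound, and -0.70 ± 0.39 without it (adjusted p = 0.378 and 0.416). The treated difference was -0.50 without Smn-null library 3 and -0.56 without control library 1, and the untreated one was -0.28 without Smn-null library 3.

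Cacna2d2 (chromosome 9, 107399612 to 107529346, plus strand), mutated in the ducky mouse, had 16.0, 16.3 and 11.2 FPKM in Smn-null libraries with R-Roscovitine, against 19.5, 14.7 and 14.6 FPKM in control libraries with it. Untreated, it had 10.2, 9.01 and 9.52 FPKM in Smn-null libraries, against 25.3, 11.8 and 15.2 FPKM in control libraries. The 3 untreated Smn-null values were the lowest of all 12, below every treated Smn-null and every control value. The genotype difference was -0.15 ± 0.22 with the compound, with an interval of -0.62 to 0.33, and -0.70 ± 0.22 without it. The untreated difference had the smallest unadjusted p of the members, 0.00783, but did not pass after adjustment (adjusted p = 0.228), and it was -0.42 without untreated control library 1. In Smn-null cultures the difference with the compound was 0.54 ± 0.22 (adjusted p = 0.999 in the fit without pairs). It was 0.21 to 0.79 in the 3 pairs, which must all be positive because these groups did not overlap. In control cultures the difference with the compound was -0.01 ± 0.22, a sign that turned without untreated control library 1 (0.26).

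Cacna2d3 (chromosome 14, 28904947 to 29721864, minus strand) had 5.20, 3.29 and 2.79 FPKM in Smn-null libraries with the compound, against 8.20, 4.13 and 4.46 FPKM in control libraries with it. Untreated, it had 4.46, 3.33 and 2.62 FPKM in Smn-null libraries, against 6.31, 4.73 and 4.22 FPKM in control libraries. Library 1 was the highest of every group, and each Smn-null library was below the same-numbered control library in both treatments, although the groups overlapped. Its genotype differences were -0.44 ± 0.25 with the compound and -0.42 ± 0.25 without it (adjusted p = 0.495 and 0.454). Summed over the class, alpha2delta levels were 32.8 ± 9.62 FPKM in Smn-null and 49.5 ± 16.9 FPKM in control cultures with the compound, and 26.2 ± 8.00 FPKM in Smn-null and 43.3 ± 6.06 FPKM in control cultures without it (SD, n = 3 each).

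Set side by side, the genotype comparisons gave no call and a common direction. With R-Roscovitine, 0 of 10 members passed, where 0.00667% of the 14982 genes tested did, and untreated 0 of 10 passed, where again 0.00667% of all genes did. With the compound 8 of 10 members were lower in Smn-null cultures, against 53.0% of all genes, with a median of -0.17, against -0.02 over all genes. That count was 5 without treated Smn-null library 3 and 6 without treated control library 1, with medians of -0.07 and -0.10. Untreated, 10 of 10 were lower, against 51.0% of all genes, with a median of -0.32, against -0.01 over all genes, and the count was 9 or 10 and the median -0.43 to -0.23 when any 1 library was left out. At an unadjusted p under 0.05, with the compound 1 member was lower, Cacna2d1, where 4.91% of all genes were. That count was 4 without treated Smn-null library 1, 2 without untreated Smn-null library 3, treated Smn-null library 2 or treated control library 3, and 0 without treated Smn-null library 3, treated control library 1, untreated Smn-null library 2 or untreated control library 1 or 3. Untreated, 3 were lower, Cacna1b, Cacnb1 and Cacna2d2, where 6.96% of all genes were. That count was 1 without treated Smn-null library 1, treated control library 3, untreated Smn-null library 2 or untreated control library 1. Groups did not overlap for 1 member with the compound, Cacna1a, where 7.99% of all genes were lower in this way, and for 4 untreated, Cacna1b, Cacna1e, Cacnb1 and Cacna2d2, where 10.1% were. No member was lower without overlap in both treatments, where 2.28% of all genes were.

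**Figure D2:**
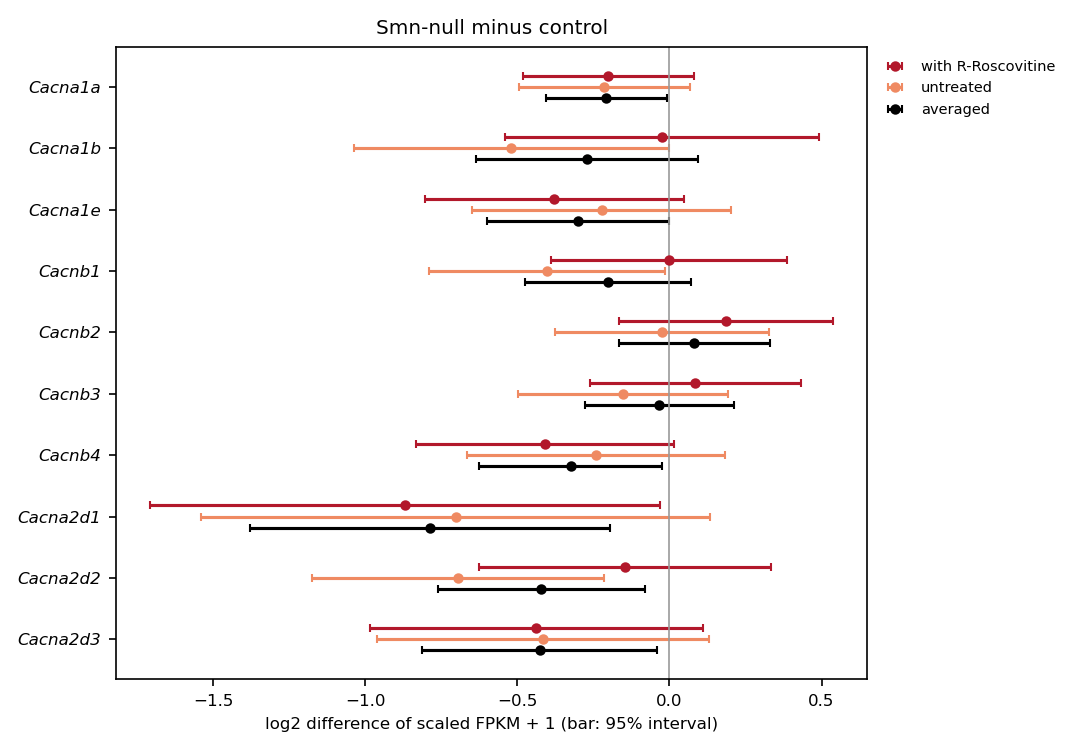
Difference of each gene between genotypes, Smn-null minus control, on the log2(scaled FPKM + 1) scale (horizontal axis), with R-Roscovitine, untreated and averaged over both; bars are 95% intervals from limma. The averaged values run from -0.79 for Cacna2d1 to 0.08 for Cacnb2, and none passed after adjustment over all 14982 genes.

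Averaged over treatments, 0 of 10 members passed, where 4.83% of all genes did. Of the 10, 9 members had negative values, as did 51.7% of all genes. Cacna2d1 was at -0.79 ± 0.27 (adjusted p = 0.113), Cacna2d3 at -0.43 ± 0.18 (0.175), Cacna2d2 at -0.42 ± 0.16 (0.133), Cacnb4 at -0.32 ± 0.14 (0.184) and Cacna1a at -0.21 ± 0.09 (0.198), and these 5 had an unadjusted p under 0.05, as did 11.3% of all genes in that direction. The members at that level were 1 without treated Smn-null library 3 or treated control library 1, and 3 without treated Smn-null library 2, untreated Smn-null library 2 or 3, or untreated control library 1 or 2. They were 3 with pairs as a random effect, and 0 without both control libraries 1 or with levels centred on the pan-neuronal markers. They were 6 without treated Smn-null library 1, with library weights, with the replicate number as a block, without scaling or with equal library sums. Cacna1e was at -0.30 ± 0.14, Cacna1b at -0.27 ± 0.17, Cacnb1 at -0.20 ± 0.13, Cacnb3 at -0.03 ± 0.11 and Cacnb2 at 0.08 ± 0.12. The share of all genes called depends on the pairing: same-numbered libraries of a genotype deviated together, and with these pairs as a random effect 64 genes passed instead of 723, and still 0 members, the smallest adjusted p among them being 0.212.

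Markers of cell types moved with genotype in the same libraries. Summed pan-neuronal markers were 1548 to 1881 FPKM in Smn-null and 1699 to 2409 FPKM in control libraries with the compound, and 1365 to 1536 FPKM in Smn-null and 1624 to 2484 FPKM in control libraries without it. With the compound, 11 of 15 pan-neuronal markers were lower in Smn-null cultures, with a median of -0.17, beside -0.17 for the channel genes. Untreated, 15 of 15 pan-neuronal markers were lower in Smn-null cultures, with a median of -0.38, beside -0.32 for the channel genes. Astroglial markers summed to 96.2 to 188 FPKM in Smn-null and 67.6 to 85.4 FPKM in control libraries with the compound, and 115 to 183 FPKM in Smn-null and 68.4 to 87.9 FPKM in control libraries without it. Sums of neural progenitor markers overlapped between genotypes. With the compound they were 3037 to 3876 FPKM in Smn-null and 2172 to 3448 FPKM in control libraries. Untreated, they were 2998 to 3917 FPKM in Smn-null and 3325 to 3604 FPKM in control libraries. Of the motoneuron markers 1 of 2 tested, and of the interneuron markers 2 of 8, fell past the threshold in Smn-null cultures averaged over treatments. With pairs as a random effect 0 of each did, as without untreated Smn-null library 3, untreated control library 2, treated Smn-null library 1 or 3, or treated control library 1. Averaged over treatments, 4 of 8 tested astroglial and 6 of 10 neural progenitor markers rose in Smn-null cultures, 2 of each with pairs as a random effect. These counts were 1 astroglial and 0 progenitor markers without untreated Smn-null library 3, treated Smn-null library 1 or treated Smn-null library 3, and 1 and 2 without treated control library 1. They were 3 and 3 without untreated Smn-null library 1 or untreated control library 2. Of the astroglial markers, S100b and Gjb6 stayed under 1 FPKM everywhere, and each of the 10 progenitor markers reached 1 FPKM in at least 1 library. When levels were centred on the pan-neuronal markers, 5 of 10 channel genes were lower in untreated Smn-null cultures, with a median of 0.07, against 0.39 over all genes. The part of these shifts in the channel values was not tested, and in such bulk samples fewer neurons and less RNA per neuron cannot be told apart.

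With R-Roscovitine no member passed in either genotype, where 0.00% of all genes passed in each. The main fit did not use the pairs. With pairs as a random effect or as a fixed term, the members' smallest adjusted p in Smn-null cultures was 0.679 or 0.616 (limma). In control cultures it was 0.959 or 0.930. In Smn-null cultures 10 of 10 members were higher with the compound, against 50.4% of all genes, with a median of 0.16, against 0.0021 over all genes. The same untreated Smn-null libraries enter the untreated genotype difference and the interaction, so these results are not independent of each other. The members' median was 0.053 without treated Smn-null library 1 and 0.24 without treated Smn-null library 3. Leaving out treated library 1 or untreated library 3 of the Smn-null cultures left 4 members lower with the compound. Of the members, Cacnb1 and Cacna2d2 had an unadjusted p under 0.05, where 1.53% of all genes did in that direction. That count was 0 without treated Smn-null library 1 or 2 or untreated Smn-null library 2 or 3. Groups did not overlap for 3 members, Cacnb1, Cacnb3 and Cacna2d2, where 5.94% of all genes were higher in this way. Without overlap every same-numbered pair must be higher, so the 3 of 3 higher pairs of these genes add nothing. In control cultures 6 of 10 members were higher, against 50.8% of all genes, with a median of 0.06. This median was 0.22 without untreated control library 1, -0.05 without untreated control library 3 and -0.08 without treated control library 1, with 1, 7 and 6 members lower in that order, against 4 lower with all libraries. It was 0.11 without treated control library 3 and 0.039 without untreated control library 2. Groups overlapped for all 10 genes in control cultures, where 1.97% of all genes were higher and 2.30% lower without overlap. Values there ran from -0.15 ± 0.16 for Cacnb2 to 0.34 ± 0.39 for Cacna2d1, whose pair 1 alone was 1.14 higher and whose pair 3 was -0.13.

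The difference between the genotypes in their response was tested directly as an interaction, and 0 of 10 members passed, as 0.00% of all genes did. The largest values were 0.55 ± 0.31 for Cacna2d2, with an interval of -0.13 to 1.23, 0.50 ± 0.34 for Cacna1b, with an interval of -0.24 to 1.23, and 0.40 ± 0.25 for Cacnb1, with an interval of -0.15 to 0.95 (adjusted p = 0.9999 for each). Of the members, 6 had positive values, against 51.5% of all genes, and 4 negative ones. All 15 pan-neuronal markers had positive interactions, with a median of 0.23, beside 0.11 for the channel genes. The median of the channel genes was -0.012 without untreated control library 1, 0.029 without treated Smn-null library 1 and 0.032 without untreated control library 2. It was 0.19 without untreated control library 3 and 0.20 without treated Smn-null library 3, treated control library 1 or untreated Smn-null library 1, and -0.11 with levels centred on the pan-neuronal markers. Between 1 and 5 members had negative interactions when any 1 library was left out. In Smn-null cultures 15 of 15 of these markers were higher with the compound, with a median of 0.34, and with levels centred on them 7 of 10 members were lower with the compound, with a median of -0.14, against -0.30 over all genes.

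**Figure D3:**
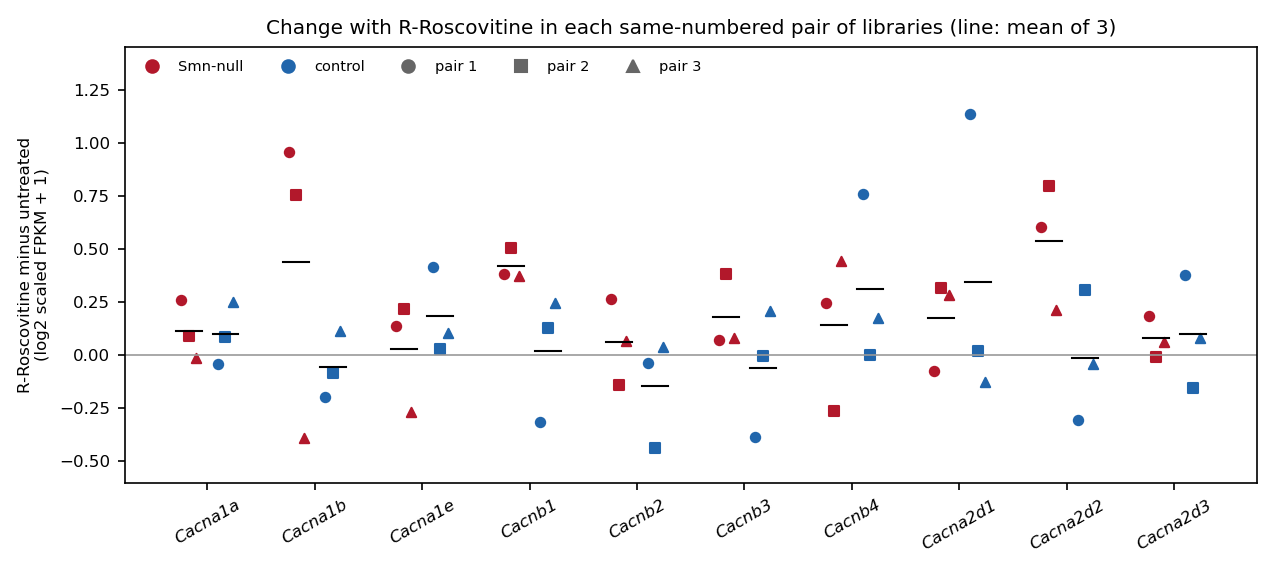
Difference with R-Roscovitine, treated minus untreated, on the log2(scaled FPKM + 1) scale (vertical axis) for each same-numbered pair of libraries; red points are Smn-null and blue points control cultures, shapes give the pair, and lines are means of 3. All 3 Smn-null pairs are above 0 for Cacnb1, Cacnb3 and Cacna2d2, which follows from their groups not overlapping. The highest control point is pair 1 of Cacna2d1 at 1.14.

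Across the 12 libraries, which are 6 same-numbered pairs in 2 genotypes and thus not independent points, 35 of the 45 pairs of members had a positive correlation, with a median r of 0.52. These values are given as a description and without a p. The closest pair was Cacnb1 with Cacna2d2, with a Pearson r of 0.93 and a Spearman rho of 0.92. Their r was 0.87 without the 2 libraries farthest from the median of Cacnb1, and 0.90 within groups, after each group's mean was subtracted. Cacna1b joined Cacna2d2 at an r of 0.82 (rho 0.85, 0.70 within groups) and Cacnb3 joined Cacnb1 at 0.83 (rho 0.78, 0.89 within groups). By r, Cacna1e, Cacna2d1, Cacna2d3 and Cacnb4 were also close to each other, but ranks did not give the same grouping. Cacna1e had a rho of 0.87 with Cacnb1, 0.85 with Cacna2d2 and 0.84 with Cacna1b. Cacna1e and Cacna2d1 had an r of 0.90 but a rho of 0.50, and Cacna2d1 and Cacna2d3 an r of 0.85 and a rho of 0.73. For Cacnb4 with Cacna2d1, an r of 0.84 dropped to 0.44 without the 2 libraries farthest from the median of Cacnb4. For Cacnb4 with Cacna2d3 an r of 0.81 dropped to 0.45, so the size of r depends on those libraries. The rho of these pairs was 0.63 and 0.71, and their r within groups 0.74 and 0.75. Cacnb2 had a negative r with all 9 other members, down to -0.40 with Cacna2d2. Within groups its r was above 0 with Cacna1a (0.23), Cacnb4 (0.14), Cacna2d3 (0.04) and Cacna2d1 (0.01), and -0.56 with Cacna2d2. Without the 2 libraries farthest from the median of Cacnb2 it was -0.78 with Cacna2d2, -0.67 with Cacna2d1, -0.63 with Cacna2d3, -0.50 with Cacnb4 and -0.43 with Cacnb3. Without the 2 farthest from the median of the other gene it was 0.28 with Cacna1a, -0.06 with Cacna1e, -0.18 with Cacna1b and -0.23 with Cacnb1.

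**Figure D4:**
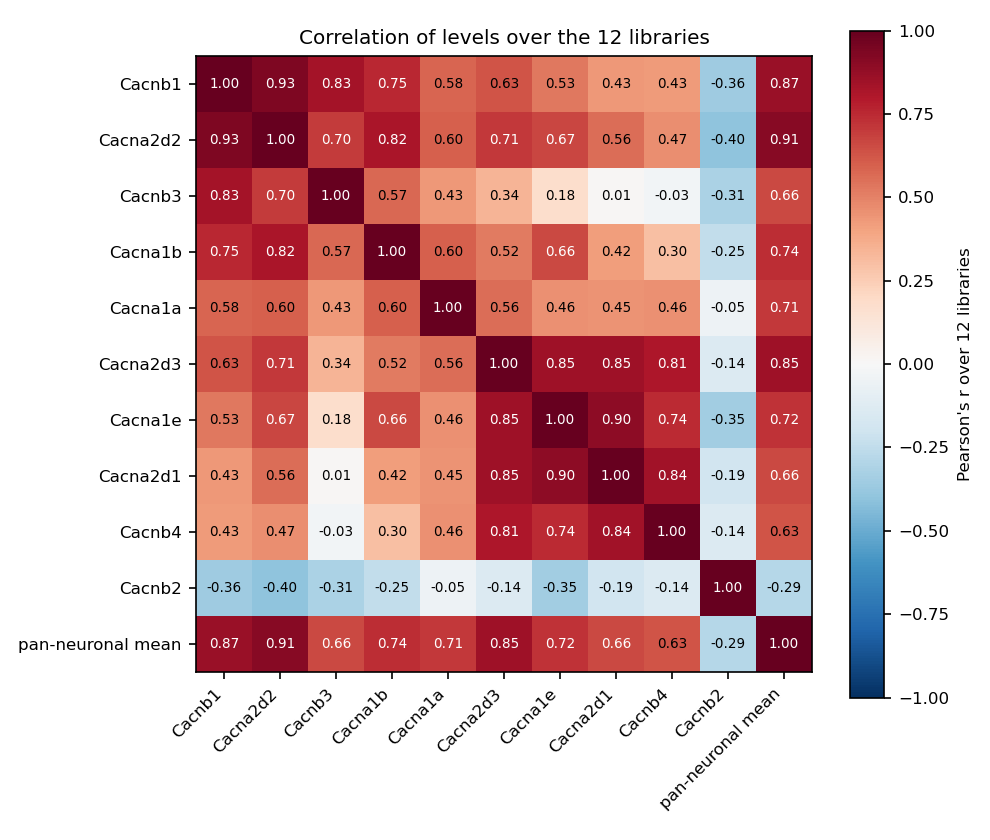
Pearson's r between the levels of the 10 genes, on the log2(scaled FPKM + 1) scale, over the 12 libraries, with the mean level of 15 pan-neuronal markers in the last row and column; colour and printed number both give r. The highest r is 0.93, for Cacnb1 with Cacna2d2, and Cacnb2 has a negative r with every other gene over the 12 libraries.

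The pan-neuronal mean was itself close to many members. Its r was 0.91 with Cacna2d2 (0.84 within groups), 0.87 with Cacnb1 (0.80), 0.85 with Cacna2d3 (0.85), 0.74 with Cacna1b (0.60), 0.72 with Cacna1e (0.65) and 0.71 with Cacna1a (0.46), and -0.29 with Cacnb2. Untreated control library 1 and treated control library 1 had the highest pan-neuronal means of all 12. The same 2 libraries held the highest value of Cacnb1, Cacna2d2, Cacnb3, Cacna1b and Cacna1a, all in the untreated one, and of Cacna2d1, Cacna2d3, Cacnb4 and Cacna1e, all in the treated one. Without both, 0 members passed in any of the 7 comparisons, and 9 of 10 were lower in untreated Smn-null cultures, with a median of -0.23. This fit was added after the values had been seen.

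A promoter of Cacnb1 and that of Cacna2d2, the pair with the highest r, are shown from 250 bases before to 50 bases after the RefSeq start (build GRCm38.p6), on the strand of the gene, with the GC box letters GGGCGG, searched on both strands and with overlaps allowed, in capitals.
Cacnb1, chr11:98022578-98022877 on the minus strand: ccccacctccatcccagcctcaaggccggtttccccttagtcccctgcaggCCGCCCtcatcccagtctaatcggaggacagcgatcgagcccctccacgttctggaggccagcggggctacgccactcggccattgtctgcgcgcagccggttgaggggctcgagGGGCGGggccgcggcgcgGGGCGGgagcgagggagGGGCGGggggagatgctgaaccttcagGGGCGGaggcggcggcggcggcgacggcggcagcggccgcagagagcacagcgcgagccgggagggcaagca
Cacna2d2, chr9:107399630-107399929 on the plus strand: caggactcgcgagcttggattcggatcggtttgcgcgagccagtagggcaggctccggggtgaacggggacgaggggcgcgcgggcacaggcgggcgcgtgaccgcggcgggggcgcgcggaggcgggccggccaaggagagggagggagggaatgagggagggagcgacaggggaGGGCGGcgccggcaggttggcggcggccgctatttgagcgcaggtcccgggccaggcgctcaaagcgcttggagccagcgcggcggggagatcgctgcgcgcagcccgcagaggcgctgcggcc
The Cacnb1 window held 5 GC boxes at a GC content of 73.7%, and the Cacna2d2 window held 1 at 75.7%. The other Cacnb1 entry, chr11:98018323-98018622, held 0 at 59.3%. Of 10 members, 9 had an entry, 14 entries in all, and 9 of the 14 held a GC box, as did 35.7% of the 32851 promoters in the table. The letters TATAAA were in none of the 14 and in 13.6% of all promoters. A match is a description of the letters and not a site of binding.

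Outside the 10 genes, the tested genes whose levels followed a pore most closely over the 12 libraries were named by Pearson's r alone. For Cacna1a they were Got2 at 0.93, Rgmb at 0.93 and Adam11 at 0.93. For Cacna1b they were Csf2ra at 0.96, Pcdhb10 at 0.95 and Cnih2 at 0.93. For Cacna1e they were Lrrc3b at 0.97, Ldb2 at 0.96 and Kcnj6 at 0.95. These are the highest of 14982 genes and so the upper end of what many comparisons give.

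Related genes were read beside the members. Of 16 other genes with symbols of calcium channel subunits, 11 were tested. Cacna1s and Cacng1, which belong to the muscle channel, stayed under 1 FPKM with Cacna1f, Cacna2d4 and Cacng6. The list was made by symbol, and whether the tested Cacng genes act in calcium channels here was not tested. Averaged over treatments, 0 of the 11 passed, where 4.83% of all genes did, and 9 were lower in Smn-null cultures, against 51.7% of all genes. Their median was -0.17, against -0.01 over all genes. Those with the smallest p were Cacng5 at -0.87 ± 0.26 (adjusted p = 0.0709), Cacng3 at -0.33 ± 0.16 (0.233) and Cacna1c, an L-type pore, at -0.17 ± 0.10 (0.309). Of 7 RGK and Stac genes, small GTPases and adaptors that bind calcium channels, 5 were tested, 0 passed and 5 were lower, beside the same shares of all genes. They were led by Stac2 at -0.56 ± 0.16 (0.0656), Rem2 at -0.53 ± 0.17 (0.0818) and Gem at -0.42 ± 0.16 (0.150).

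Of 25 genes for proteins that bind or modulate Cav2 channels at the terminal, all tested, 21 were lower in Smn-null cultures, against 51.7% of all genes. Of the 25, 2 fell past the threshold, where 4.83% of all genes were called in either direction, and 1 of them is described here. Rims1, the active zone protein that tethers Cav2 channels, had 10.1 ± 1.89 FPKM in Smn-null and 15.8 ± 4.34 FPKM in control cultures with the compound, and 8.55 ± 1.34 FPKM in Smn-null and 12.4 ± 1.29 FPKM in control cultures without it (SD, n = 3 each). Its averaged difference was -0.51 ± 0.14 (adjusted p = 0.0488). The next was Syt1, a calcium sensor of release, at -0.48 ± 0.14 (0.0688). With pairs as a random effect 0 of the 25 passed (adjusted p = 0.143 for Rims1). With single libraries left out, the call of Rims1 ended in 10 of 12 fits, all but those without treated Smn-null library 2 or treated control library 3, with adjusted p of 0.0350 to 0.135.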

How the data were processed

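The data are 12 gene tables from mRNA sequencing of primary mouse motoneuron cultures, 1 per library. The libraries were made from total RNA with a Lexogen mRNA-Seq kit, per the labels' protocols. The values the authors deposited are FPKM per gene with their Cufflinks intervals. Cufflinks 2.2.1, FastQC 0.10.1, Trim Galore 0.4.0 and GRCm38 are listed in the submitters' processing notes. For the aligner, read length and use of strand, the sources used here state nothing. The tables hold 39196 entries for 39174 identifiers, and the FPKM of the 19 identifiers on several lines were summed.

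FPKM carry no counts. The step between low values, searched only within a range set in advance, gave an estimated 19.5 to 28.7 M reads a library. Only 29.2% to 31.4% of low values were whole multiples within 0.01 reads, so no count test was used.

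FPKM were scaled by median-of-ratios factors and analysed as log2(scaled FPKM + 1), which understates differences of low genes; levels in the text are unscaled. Genes with at least 1 FPKM in at least 3 libraries were tested, small RNA genes left out, 14982 in all. Genes were tested two-sided with limma 3.58.1 (R 4.3.3, eBayes with trend) on 4 group means over all 12 libraries, with Benjamini-Hochberg adjustment over all tested genes and a threshold of 0.05, for 7 comparisons: the genotype difference with and without the compound, the compound difference in both genotypes, the interaction, and the mean difference for either factor. On simulated data with 100 genes changed by a log2 difference of 1 and 100 by 2, the untreated genotype comparison called 80% and 100% of them. The simulated noise was independent between libraries, and low genes were not changed. Real libraries deviated in pairs, and the largest fitted difference of a member was -0.87, so these rates are not the power for the members. Other steps used pandas 2.3.3 and matplotlib 3.10.9 (Python 3.11.15).

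Same-numbered libraries of a genotype deviated from their group means together, with correlations of 0.24 to 0.60 in all 6 pairs over all tested genes, against -0.41 to 0.07 for other numbers. Treated and untreated libraries of a number were therefore taken as pairs within a genotype for the pair differences and the alternative fits with pairs. The main fit, which gave every adjusted p not named otherwise, had no block for pairs. The pairing comes from the data, not from the labels.

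The members, gene lists and tests were chosen with earlier results of these data known. All 10 members were named, with the 3 closest genes to each pore and up to 3 genes of each further list by p in the averaged genotype difference, of which 1 gene is not reported here. Alternatives were another pseudocount, no filter, other scalings, library weights, only the libraries compared, replicate blocks and each library left out; the fit without both control libraries 1 was added after seeing the data.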

Additional observations from a re-analysis of the deposited data

How the results depend on the processing

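No member passed under any alternative run in 6 of the 7 comparisons. For the genotype difference averaged over treatments, 1 of 10 members passed with library weights, Cacna2d1 at -0.84, where 2017 of all 14982 genes passed. With the replicate number as a block 3 of 10 passed, Cacna2d1, Cacna2d2 and Cacna2d3, where 1772 of all 14982 genes did. That block pairs libraries across genotypes, where same-numbered libraries of 1 treatment correlated at -0.06 to 0.31, not all above 0.1, although 11 of 12 libraries were closest to one of their own number in the other genotype. Pairs within a genotype changed no member's call. With 1 library left out, the count of members called was 0 in every comparison. Of 991 alternative values of the 45 member differences reported, 44 turned sign.

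Centring on pan-neuronal markers moved the median of all genes to 0.39, 0.16 and 0.28 in the untreated, treated and averaged genotype differences. With it, untreated values turned positive for Cacna1a (0.18), Cacna1e (0.18), Cacnb2 (0.38), Cacnb3 (0.24) and Cacnb4 (0.16), treated ones for Cacna1b (0.15), Cacnb1 (0.17) and Cacna2d2 (0.028), and averaged ones for Cacna1a (0.076), Cacna1b (0.012), Cacnb1 (0.082) and Cacnb3 (0.25). Of 10 members, 7 then had negative compound differences in Smn-null cultures instead of 0, and 6 on average instead of 1. Of the values reported, these were Cacnb3 in Smn-null cultures (-0.12) and, on average, Cacna1a (-0.087), Cacna1b (-0.0004) and Cacna1e (-0.085). With library weights the averaged genotype values of Cacnb2 (-0.025) and Cacnb3 (0.021), the treated one of Cacnb1 (0.014) and the compound differences in control cultures of Cacna2d1 (-0.033) and Cacna2d2 (0.19) turned sign, the last also with equal library sums (0.020). Without both control libraries 1, so did the genotype values of Cacnb3 untreated (0.057) and averaged (0.092) and of Cacna1b (0.080) and Cacnb1 (0.077) treated, and the compound differences in control cultures of Cacna1b (0.018), Cacna2d1 (-0.051) and Cacna2d2 (0.14). The cause was not tested.

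With single libraries left out, genotype values spanned 0 for Cacnb2 (-0.13 to 0.12) and Cacnb3 (-0.29 to 0.053) untreated, Cacnb3 averaged (-0.10 to 0.069), and Cacna1b (-0.20 to 0.27), Cacnb1 (-0.061 to 0.077) and Cacna2d2 (-0.23 to 0.018) treated. Compound differences in control cultures did so for Cacna1a (-0.027 to 0.17), Cacna1b (-0.19 to 0.12) and Cacna2d2 (-0.22 to 0.26).

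The count of all genes called in the averaged genotype difference, 723, was 6 without untreated Smn-null library 3 or treated Smn-null library 1, 36 without treated Smn-null library 3, 54 without treated control library 1, 111 without untreated control library 2, 153 without untreated Smn-null library 1, 417 without treated control library 2 and 1363 without treated Smn-null library 2. It was 1 with no filter on low values, 64 with pairs as a random effect or without both control libraries 1, 1155 centred on pan-neuronal markers, 1772 with the number as a block and 2017 with library weights. The untreated count, 1, was 458 with weights and 327 with that block, and the treated count, 1, was 15 with weights, 252 with that block and 228 without treated Smn-null library 2.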
